A study of Mus musculus with 6 samples.

Results

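The AHR pathway genes examined here were Ahr, Ahrr, Cyp1a1, Cyp1a2, Cyp1b1, Tiparp and Aldh3a1. They were chosen by gene symbol, and all 7 were found among the 25330 genes of the RNA-seq tables. The cells were AML12, a mouse hepatocyte line, wild-type only in the study's sense of cells without KLF6 knockout. They were cultured with 10% fetal bovine serum, an insulin-transferrin-selenium supplement and 40 ng/mL dexamethasone, a synthetic glucocorticoid. Control cells (3 libraries) stayed at 21% oxygen. H/R cells (3 libraries, labelled H6R2) spent 6 h at 1% oxygen in medium without serum or glucose and were then reoxygenated for 2 h. Medium and oxygen therefore changed together and their parts cannot be told apart, and no group was sampled after hypoxia alone. No added AHR ligand was named for either group, and the sources used here do not say whether the serum-free medium held dexamethasone.

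The aryl hydrocarbon receptor (AHR) is a ligand-activated transcription factor of the bHLH-PAS family. Without ligand it sits in the cytosol with HSP90 and the cochaperone p23. With ligand it enters the nucleus, pairs with ARNT and binds xenobiotic response elements, whose core reads GCGTG. AHR is best known for inducing the cytochrome P450 enzymes CYP1A1, CYP1A2 and CYP1B1, which oxidize polycyclic aromatic compounds. ARNT is also the partner of the hypoxia-inducible factors HIF-1α and EPAS1 (HIF-2α), so AHR and HIF can compete for it. Levels of mRNA do not measure that competition, but they give the relative abundance of the transcripts of both sides.

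Promoter windows are shown because AHR is known to act on its target genes through elements with the core GCGTG. RefSeq sequences on GRCm38.p6, from 250 bases before to 50 bases after the annotated start, were matched for 5 of the 7 members. Ahr and Aldh3a1 were not matched. The 3 windows below are those of the members with a called change or the most familiar AHR response, written 5′ to 3′ on the strand of the gene. Capitals mark GCGTG or its reverse complement CACGC. The Cyp1a1 window is chr9:57697363-57697662 on the plus strand, that of Cyp1b1 is chr17:79715012-79715311 on the minus strand, and that of Tiparp is chr3:65528197-65528496 on the plus strand.
Cyp1a1: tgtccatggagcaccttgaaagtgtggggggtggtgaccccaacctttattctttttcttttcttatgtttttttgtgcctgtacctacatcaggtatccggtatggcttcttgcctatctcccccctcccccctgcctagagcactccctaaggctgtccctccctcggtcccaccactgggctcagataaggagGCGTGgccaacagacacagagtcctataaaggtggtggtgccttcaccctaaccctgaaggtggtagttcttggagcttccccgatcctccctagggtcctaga
Cyp1b1: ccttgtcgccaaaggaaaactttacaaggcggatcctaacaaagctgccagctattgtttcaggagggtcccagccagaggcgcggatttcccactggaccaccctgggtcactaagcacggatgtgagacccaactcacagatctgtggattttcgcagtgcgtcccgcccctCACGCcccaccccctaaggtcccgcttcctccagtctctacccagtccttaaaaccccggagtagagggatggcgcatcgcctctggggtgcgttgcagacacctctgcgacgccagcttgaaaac
Tiparp: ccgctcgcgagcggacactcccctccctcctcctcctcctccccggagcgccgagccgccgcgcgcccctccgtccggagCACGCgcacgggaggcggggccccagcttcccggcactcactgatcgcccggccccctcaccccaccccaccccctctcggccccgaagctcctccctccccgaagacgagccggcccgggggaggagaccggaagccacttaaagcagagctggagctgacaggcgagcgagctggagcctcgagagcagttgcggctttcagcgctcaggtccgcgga

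GCGTG, searched on both strands, was present in the windows of Ahrr (3 matches), Cyp1a1 (1), Cyp1b1 (1) and Tiparp (1), and not in that of Cyp1a2. The match began 54 bases before the start of Cyp1a1, while those of Cyp1b1 and Tiparp lay on the reverse strand. That Cyp1a1 start is the RefSeq one and lies inside the gene's span in the deposited tables, which begins at 57687928. Bases further upstream than the windows were not searched. Among all 32851 windows of this length, 32.4% held GCGTG. The longer form TNGCGTG, which contains GCGTG, was found in the Ahrr window alone among the 5 and in 5.07% of all windows. ACGTG, the A form of the hypoxia response element core, was in none of the 5 and in 19.6% of all windows. The G form of that core has the same letters as the GCGTG marked above. The marked matches therefore cannot be assigned to AHR or to HIF by sequence, and absence of a hypoxia response element was not shown. These matches describe letters in a window and do not show that a factor bound there.

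Library totals were similar, from 21026650 to 21854790 counts in Control and from 20438746 to 21742441 in H/R. Control replicate 1 stood apart in several liver transcripts. Albumin (Alb) had 542 counts there against 132 and 209 in the other Control libraries, and the H/R libraries had 43, 31 and 37. Of the 15 hepatocyte markers, all had at least 10 counts in Control replicate 1, against 11 in each of the other Control libraries and 9 to 11 in the H/R libraries. Apoa2, Serpina1a, Fga and Fgb had at least 52 counts in Control replicate 1 and at most 1 elsewhere, so these defining hepatocyte products were near 0 in 5 of the 6 libraries. The summed marker level was 4240 to 4585 CPM (counts scaled to a fixed library total) in Control and 6196 to 6230 in H/R, most of it from the keratins Krt8 and Krt18. Of 17 markers of other liver cells, 9 to 12 had at most 3 counts in each library, and their summed level was 1314 to 1480 CPM in Control and 2401 to 2496 in H/R, most of it from Krt19 and Krt7. The leukocyte marker Ptprc had at most 3 counts, and the macrophage marker Cd68 had 16, 22 and 22 counts in Control and 123, 113 and 137 in H/R. The other macrophage markers were near 0, with at most 1 count of Adgre1 or Clec4f in any library and at most 5 of Lyz2. The part of these markers in the results was not tested.

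Groups were compared with edgeR's quasi-likelihood test, adjusted by Benjamini-Hochberg over the 14020 genes with enough counts to be tested, and a change was called at an adjusted p under 0.05. Scaled counts are counts corrected for library size, and RPKM values are CPM values divided by gene length in kilobases. Of the 7 members, 5 could be tested, and Ahrr and Cyp1a2 could not. Ahr and Tiparp were higher in H/R (2 members) and Cyp1b1 was lower (1 member), while Cyp1a1 and Aldh3a1 were not called. Over all tested genes 31.0% were called higher and 31.8% lower, so a called change was common in these libraries. At a fold change of at least 2 as well, Ahr was called higher and Cyp1b1 lower, against 4.25% and 4.27% of tested genes. Cyp1b1 entered the test only through Control, where it was higher, with 3 Control libraries and 1 H/R library above the low-count limit. Nothing in the labels says that the replicates came from separate cultures, so these p-values measure the spread between libraries, which may be technical.

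**Figure D1:**
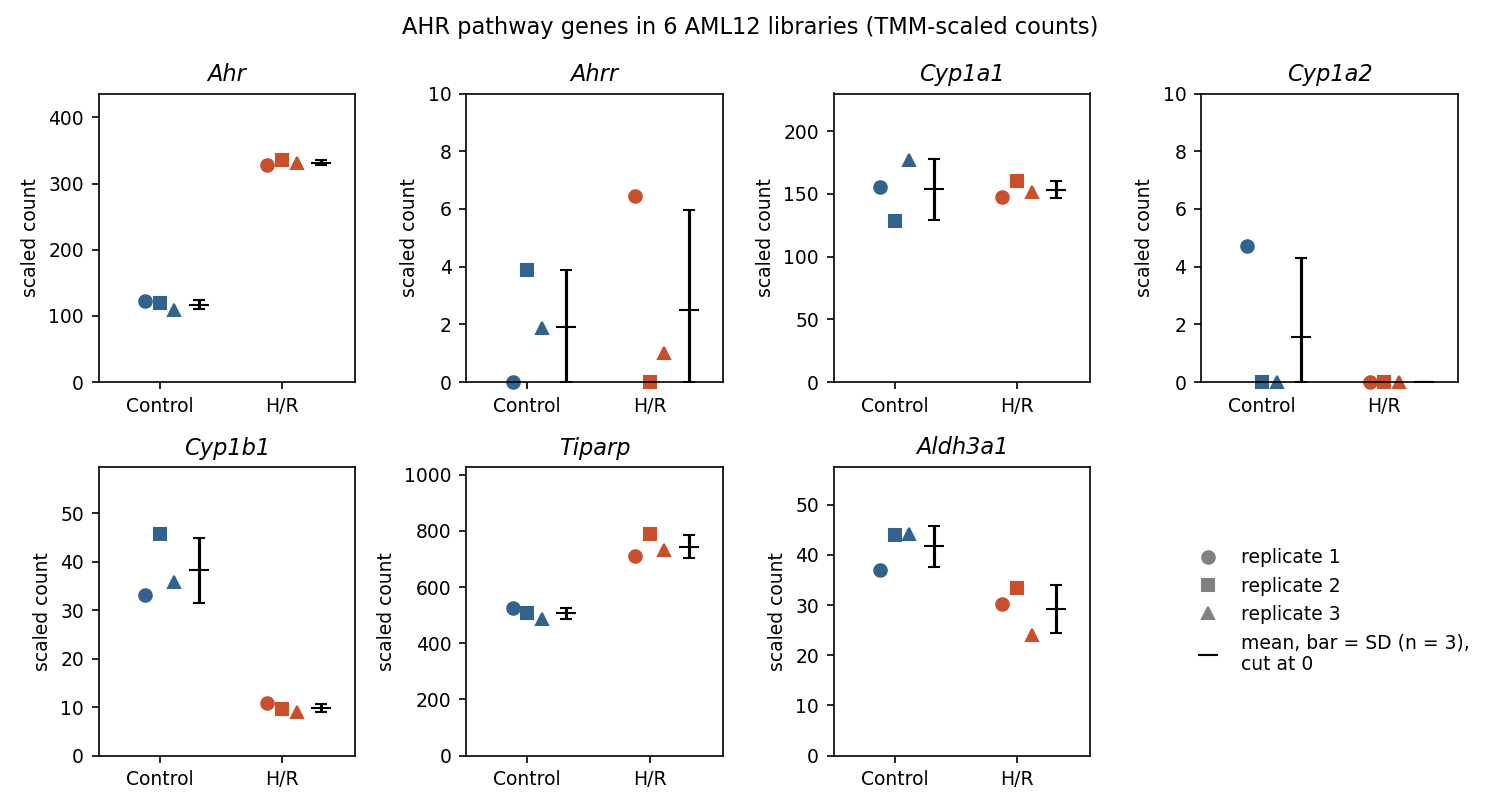
Scaled count of each of the 7 AHR pathway genes in the 3 Control and 3 H/R libraries, with marker shape giving the replicate number and bars the mean ± SD. Ahr and Tiparp lie higher in all H/R libraries, Cyp1b1 and Aldh3a1 lie lower, Cyp1a1 overlaps, and Ahrr and Cyp1a2 lie at or near 0.

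Ahr encodes the receptor itself (chromosome 12, 35497974 to 35535038, minus strand, GRCm38, with no exon shared with another gene). Its raw counts were 129, 122 and 116 in Control and 304, 311 and 332 in H/R. Every H/R library was above every Control library, with little spread within either group. The scaled count rose from 117 ± 6.75 to 332 ± 4.0 (SD, n = 3 each). This was a log2 fold change of 1.5 (SE 0.0997, 95% interval 1.3 to 1.71), or 2.84-fold (2.47 to 3.27), with an adjusted p of 3.47e-15 by edgeR's quasi-likelihood test. Leaving out Control replicate 1 gave 1.54 on the log2 scale. In bulk RNA, a change in the number of cells expressing a gene and a change in RNA per cell cannot be told apart.

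The genes whose pattern over the 6 libraries was most like that of Ahr were Tet2, Fermt2 and Arhgap22. Likeness was the Euclidean distance between centred log2 CPM values, compared over 10178 genes with a mean of at least 100 counts. The distances were 0.0947 for Tet2, 0.117 for Fermt2 and 0.119 for Arhgap22. Tet2 encodes an enzyme that oxidizes methylated cytosine in DNA, and Fermt2 an adaptor of integrin adhesion. Their log2 fold changes were 1.51 and 1.44, and that of Arhgap22 was 1.46.

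The feedback repressors differed in whether they could be measured. Tiparp encodes a mono-ADP-ribosyltransferase that is induced by AHR and limits its activity (chromosome 3, 65528410 to 65555518, plus strand). Its counts were 554, 520 and 517 in Control and 660, 733 and 733 in H/R. All H/R libraries were above all Control libraries, and H/R replicate 1 was the lowest of its group. The scaled count rose from 506 ± 18.9 to 745 ± 41.2 (SD, n = 3 each), a log2 fold change of 0.56 (SE 0.0635, 95% interval 0.43 to 0.69) with an adjusted p of 2.17e-09 by edgeR's quasi-likelihood test. This is 1.47-fold, and its 95% interval did not overlap that of Ahr. Of its exon length, 5.12% overlaps the opposite-strand gene 4931440P22Rik, and whether reads were counted by strand is not given in the sources used here.

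Ahrr encodes the AHR repressor, which competes with AHR for ARNT (chromosome 13, 74211118 to 74292331, minus strand). It had 0, 4 and 2 counts in Control and 6, 0 and 1 in H/R. The groups overlapped, and both means were under the floor of 3 counts per library, which corresponds here to 0.0147 to 0.0157 RPKM. No fold change is given, and a difference was not detectable at this depth.

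The CYP1 genes did not move together. Cyp1a1, the classic AHR target (chromosome 9, 57687928 to 57703824, plus strand), had 164, 132 and 188 counts in Control and 137, 149 and 152 in H/R. The groups overlapped, and Control held both the highest and the lowest library. The scaled count was 154 ± 24.2 in Control and 153 ± 6.70 in H/R (SD, n = 3 each). The ratio of H/R to Control was 0.997, with a 95% interval of 0.842 to 1.18 (log2 scale, -0.25 to 0.24) and an adjusted p of 0.977 by edgeR's quasi-likelihood test. A miss of the threshold does not show that the levels were equal, and the interval gives the changes that these libraries leave possible.

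Cyp1b1 encodes an extrahepatic CYP1 enzyme (chromosome 17, 79706953 to 79715041, minus strand). Its counts were 35, 47 and 38 in Control and 10, 9 and 9 in H/R. Every H/R library was below every Control library. The scaled count fell from 38.3 ± 6.70 to 9.82 ± 0.894 (SD, n = 3 each), a log2 fold change of -1.95 (SE 0.302, 95% interval -2.56 to -1.34), or 3.86-fold lower, with an adjusted p of 9.16e-07 by edgeR's quasi-likelihood test. It passed the low-count filter through Control, where all 3 libraries were above the limit of 0.472 CPM, against 1 H/R library. Leaving out Control replicate 1 gave -2.04 on the log2 scale.

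Cyp1a2, the constitutive CYP1 enzyme of adult liver (chromosome 9, 57676937 to 57683703, minus strand), had 5 counts in Control replicate 1 and 0 in each of the other 5 libraries. It was not tested and has no fold change. The floor of 3 counts corresponds here to 0.0682 to 0.0729 RPKM. Its counts were thus all in the library in which Apoa2, Serpina1a, Fga and Fgb were also detected at 52 counts or more. The 9 other adult liver P450 genes on a list of detoxification enzymes summed to 97 counts in Control replicate 1, 3 and 9 in the other Control libraries, and 11, 4 and 1 in H/R. Cyp2e1 had 45 of these counts in Control replicate 1, 1 in H/R replicate 1 and 0 in the remaining libraries.

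Aldh3a1 encodes an aldehyde dehydrogenase of the AHR gene battery (chromosome 11, 61207537 to 61218421, plus strand). Its counts were 39, 45 and 47 in Control and 28, 31 and 24 in H/R. No H/R library reached the lowest Control library. The scaled count was 41.7 ± 4.13 in Control and 29.2 ± 4.80 in H/R (SD, n = 3 each), a log2 fold change of -0.52 (SE 0.232, 95% interval -0.99 to -0.05). The adjusted p was 0.0517 by edgeR's quasi-likelihood test, so the gene missed the threshold. It passed in 7 alternatives, among them the fit without Control replicate 1 (log2 fold change -0.60, adjusted p 0.0420). Groups that do not overlap were common, with 32.5% of tested genes higher and 33.5% lower in every H/R library.

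**Figure D2:**
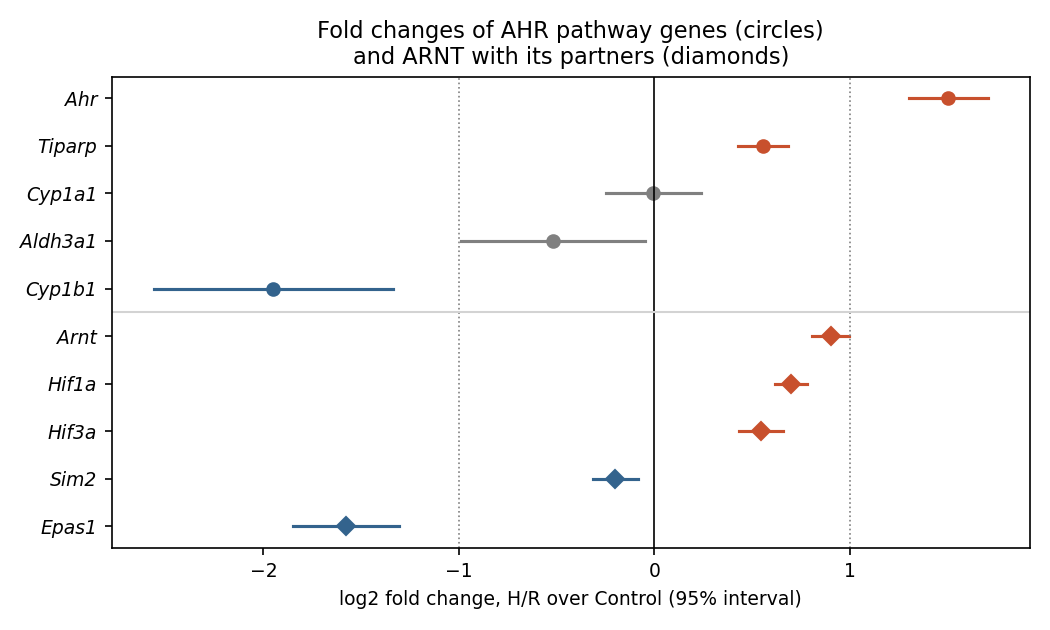
Log2 fold change of H/R over Control with its 95% interval for the tested members (circles) and for ARNT and its partners (diamonds), orange where called higher, blue where called lower and grey where not called, with dotted lines at a 2-fold change. Ahr (1.5) and Cyp1b1 (-1.95) lie beyond the dotted lines in opposite directions.

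Levels between genes were compared per length, as mean RPKM. In Control the order was Tiparp, Cyp1a1, Aldh3a1, Ahr and Cyp1b1. Ahr was at 0.927 ± 0.0394 RPKM, and its Control libraries overlapped those of Aldh3a1, which lay between 0.919 and 1.14. In H/R Ahr was at 2.45 ± 0.0407 RPKM beside Cyp1a1 at 2.51 ± 0.110, again with overlapping libraries. Tiparp stayed the highest member and Cyp1b1 the lowest of the 5.

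Ratios within a library do not depend on library scaling. They were computed for 11 quantities, of which those between members were chosen after their values had been seen. Cyp1a1 RPKM per Ahr RPKM was 2.81, 2.39 and 3.58 in Control and 0.997, 1.06 and 1.01 in H/R. The groups did not overlap, and the mean was 2.86-fold lower in H/R. The ratio of Tiparp to Ahr went from 6.13 ± 0.147 to 3.18 ± 0.139, and that of Cyp1b1 to Cyp1a1 from 0.140 ± 0.0466 to 0.0349 ± 0.00415 (SD, n = 3 each). For each of the 11 quantities the two-sided exact permutation p was 0.1, also after Benjamini-Hochberg adjustment, which is the smallest p that 3 libraries against 3 can give.

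On the side of the shared partner, Arnt had 1310, 1345 and 1314 counts in Control and 2206, 2162 and 2375 in H/R. Each H/R library was above each Control library, with a log2 fold change of 0.90 (SE 0.0464) and an adjusted p of 3.37e-18 by edgeR's quasi-likelihood test. Hif1a rose by 0.70 (SE 0.0408) on the log2 scale, with an adjusted p of 1.09e-16 in the same test, and 5.60% of its exon length overlaps the opposite-strand gene Gm15283. Epas1 had 197, 226 and 200 counts in Control and 60, 54 and 76 in H/R, a log2 fold change of -1.58 (SE 0.134, adjusted p 2.00e-12 in edgeR's test). Among the partners Ahr therefore rose beside Hif1a while Epas1 fell. Hif3a rose by 0.54 on the log2 scale, and Sim2 changed by -0.20 (adjusted p 0.00239 in edgeR's test).

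Ahr transcripts were a small part of the partner pool. As a share of the summed RPKM of Ahr, Hif1a and Epas1, Ahr was 2.53%, 2.55% and 2.37% in Control and 4.47%, 4.39% and 4.43% in H/R. The share was 1.79-fold higher in H/R with no overlap between groups. Hif1a was 92.6% ± 0.565 of the sum in Control and 94.5% ± 0.171 in H/R, and Epas1 went from 4.90% ± 0.521 to 1.03% ± 0.147 (SD, n = 3 each). Hif1a RPKM per Ahr RPKM was 37.3 ± 1.65 in Control and 21.3 ± 0.222 in H/R.

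The summed RPKM of the 3 partners per RPKM of Arnt was 5.06, 4.62 and 4.84 in Control and 4.0, 4.26 and 4.10 in H/R. The H/R libraries were all lower, at 0.851 of the Control mean. Ahr RPKM per Arnt RPKM was higher in each H/R library, with means of 0.120 ± 0.00692 and 0.183 ± 0.0040 (SD, n = 3 each). These are ratios of mRNA. Protein amounts, nuclear location and dimers of AHR or HIF with ARNT were not measured here.

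**Figure D3:**
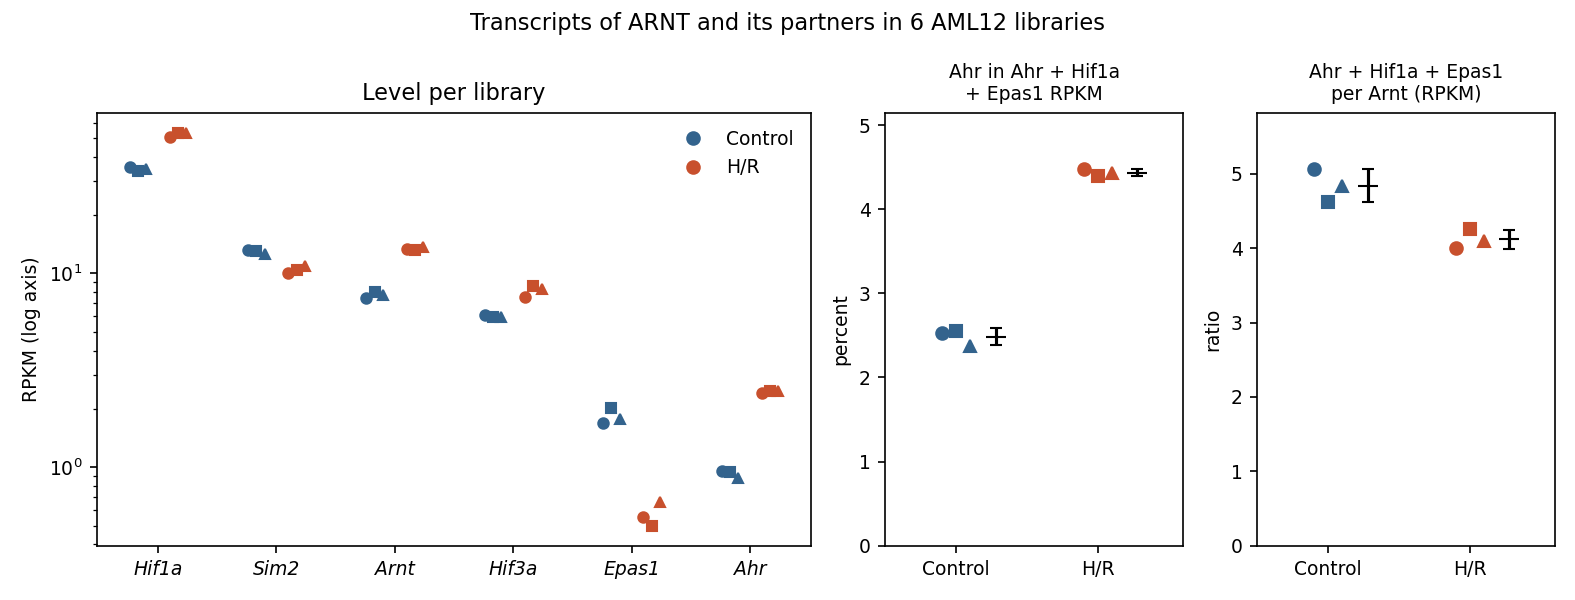
RPKM of Arnt and its partners in each library on a log axis (left), the percent of Ahr in the summed RPKM of Ahr, Hif1a and Epas1 (middle) and that sum per RPKM of Arnt (right), with bars giving mean ± SD. Ahr is 2.48% of the sum in Control and 4.43% in H/R, and the sum per Arnt is lower in H/R (4.12 against 4.84).

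Genes around the members were counted on lists written with earlier results in view. Their counts are to be read against the 31.0% of all tested genes called higher and the 31.8% called lower. Of the 8 genes of the cytosolic complex and AHR turnover, 3 were called higher, 3 lower and 2 not called, which is close to those shares, with a median log2 fold change of 0.05 beside -0.01 over all tested genes. With library totals alone, 1 was called higher and 4 lower. Ptges3, which encodes p23, fell by 0.38 on the log2 scale (adjusted p 2.49e-09 in edgeR's test). Hsp90aa1 and Hsp90ab1, the HSP90 genes, had log2 fold changes of 0.01 and 0.09 that were not called and turned negative with library totals alone (-0.09 and -0.01). With that scaling Hsp90aa1 was called lower (adjusted p 0.0444 in edgeR's test), while DESeq2 called Hsp90ab1 higher (adjusted p 0.0175). That scaling moves the median of all genes from -0.01 to -0.12.

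Of 19 other genes known to be induced through AHR, 14 were tested, with 6 called higher, 4 lower and 4 not called (median 0.02). These counts are also near the shares over all genes. Cyp2s1, a P450 of epithelial tissues, had 210, 174 and 211 counts in Control and 786, 732 and 786 in H/R. The groups were far apart, with a log2 fold change of 2.09 (SE 0.0773) and an adjusted p of 3.03e-22 by edgeR's quasi-likelihood test, and 5.27% of its exon length overlaps an opposite-strand gene. Ereg, a ligand of the EGF receptor, rose by 1.80 and Nfe2l2, which encodes NRF2, by 0.67 on the log2 scale, with adjusted p values of 6.38e-16 and 5.05e-15 in edgeR's test. Ugt1a6a, a glucuronosyltransferase, fell by 0.39, but the Ugt1a genes share exons (50.3% of its own exon length), so its value is uncertain. Nqo1 had 3, 4 and 5 counts in Control and 2, 1 and 1 in H/R and was not tested. The 4 genes called lower were Ugt1a6a, Ugt1a6b, Ugt1a7c and Ugt1a9, which lie in 1 locus and share exons, so they are not separate cases of a lower level. The 6 other called genes of the list were higher.

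Of the 15 HIF target genes, 14 were called higher and 1 was not called, with a median of 1.74 and 12 past 2-fold. Slc2a1, a glucose transporter, rose by 3.01 and Vegfa, a vascular growth factor, by 1.74 on the log2 scale (adjusted p 7.64e-33 and 2.36e-25 in edgeR's test). Car9, a carbonic anhydrase, was the gene not called, with -0.17 and an adjusted p of 0.686 in edgeR's test. No difference between this list and the AHR genes was tested.

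Of 14 tested AHR coregulators, 10 were called higher and 3 lower (median 0.43), and without Control replicate 1 the counts were 9 and 0. Ncoa3 and Crebbp, which encode coactivators, rose by 0.88 and 0.80 on the log2 scale (adjusted p 8.71e-17 and 1.38e-13 in edgeR's test). Of 11 genes for P450 electron donors and heme synthesis, 3 were called higher, 4 lower and 4 not called (median -0.11), again near the shares over all genes, and library totals alone gave 7 lower. Por, the electron donor of CYP1 enzymes, rose by 0.51 on the log2 scale (adjusted p 7.50e-13 in edgeR's test). Hmox1, on this list although its enzyme breaks heme down, rose by 1.47 (adjusted p 2.13e-23 in edgeR's test) and was the gene past 2-fold. Of 10 tryptophan and kynurenine enzymes, whose products can act as AHR ligands, 2 were tested. Neither Afmid (-0.16, adjusted p 0.235, unadjusted p 0.177) nor Il4i1 (0.15, adjusted p 0.394, unadjusted p 0.322) was called in edgeR's test, and DESeq2 called neither, but limma-trend called Afmid lower on log2(RPKM + 1) and log2(RPKM + 0.1) (adjusted p 0.0415 and 0.0435). Of their exon length, 46.6% and 86.3% overlap other genes, so both values are uncertain.

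**Figure D4:**
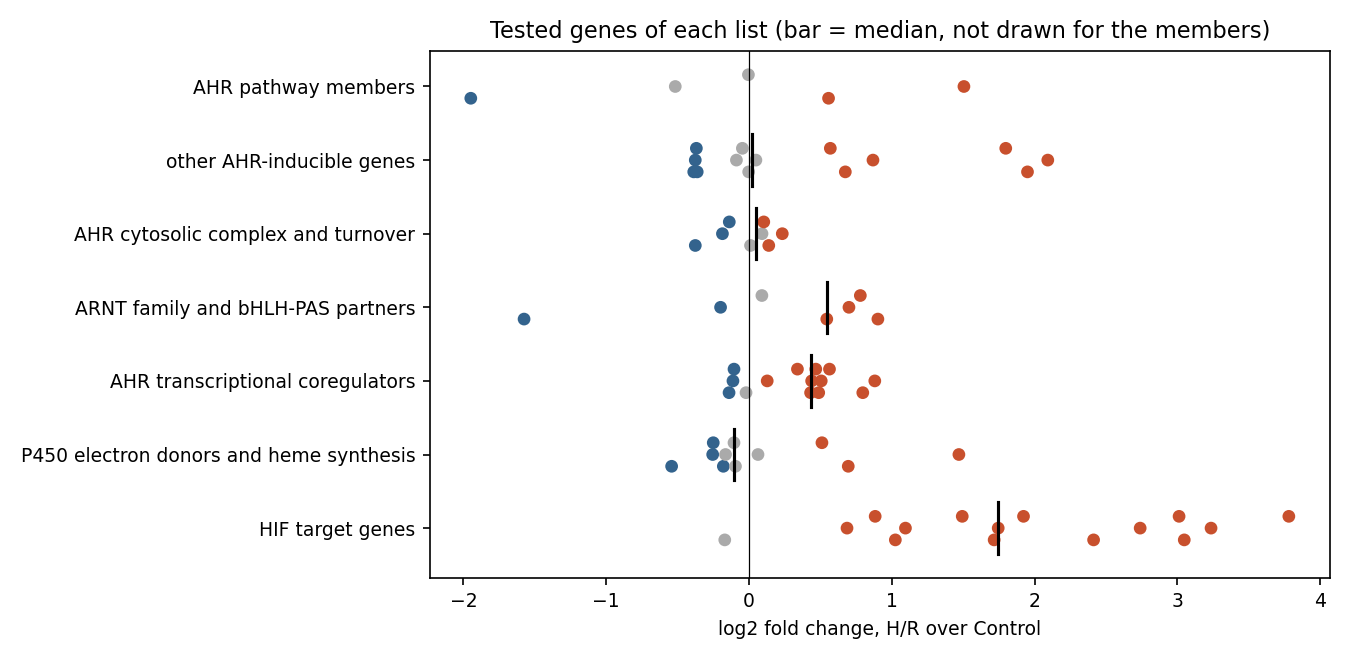
Log2 fold change of H/R over Control for every tested gene of the members and of 6 gene lists, orange where called higher, blue where called lower and grey where not called, with a black bar at each list's median. The HIF target genes have a median of 1.74, while other AHR-inducible genes have a median of 0.02, with the 4 lower ones all from the Ugt1a locus.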

How the data were processed

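Stranded mRNA libraries of 3 Control and 3 H/R samples were compared. The authors' deposited counts are raw reads per gene, and RPKM values deposited by the authors are those counts divided by gene length and library total. Reads were mapped to GRCm38. The submitters' processing notes also name Trimmomatic 0.36, featureCounts of Subread 1.5.1 and edgeR 3.12.1. The annotation release and the strand setting of the counting are not given in the sources used here. Gene positions follow the deposited tables and start at 1.

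Counts were analyzed in R 4.3.3 with edgeR 4.0.16 (filterByExpr, TMM, robust glmQLFit, glmQLFTest) and Benjamini-Hochberg adjustment over the 14020 genes tested. Standard errors came from the F statistic. Replicate pairs all differed beyond sampling noise, with chi-square values of 2.19 to 16.2 per degree of freedom. The scripts were tested on simulated data. Floors and intervals of single counts cover counting error only. Alternatives were DESeq2 1.42.0, library totals alone, upper quartile scaling, a minimum of 10 counts in each library, no filter, a replicate block, limma-trend (limma 3.58.1) on log2(RPKM + 1) and log2(RPKM + 0.1), each library left out, and more ARNT partners.

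The members and the lists were chosen with earlier results of these data known. Genes named were all 7 members, Arnt, Hif1a, Epas1, Hsp90aa1, Hsp90ab1, Nqo1 and Vegfa, up to 4 further genes per list with the smallest adjusted p, and the 3 genes nearest in pattern to the tested member with the smallest p. The result of 1 further gene under this rule is not reported here. Marker genes, Cyp2e1 and Car9 were named after their values were seen.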

Additional observations from a re-analysis of the deposited data

How the results depend on the processing

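Ahr, Tiparp and Cyp1b1 kept their direction and their call under every alternative that could be fitted. Their log2 fold changes ranged from 0.84 to 1.54, from 0.39 to 0.59 and from -2.05 to -0.33. Cyp1b1 could not be tested with at least 10 counts in every library, since the filter removes it. Cyp1a1 was not called in any alternative and lay on either side of 0, at 0.0103 with DESeq2 and from -0.12 to 0.11 with 1 library left out. Aldh3a1 was past the threshold with upper quartile scaling (-0.59), library totals alone (-0.62), at least 10 counts in every library (-0.53), log2(RPKM + 1) (-0.29) and log2(RPKM + 0.1) (-0.56), and lay between -0.63 and -0.39 when single libraries were dropped. Without Control replicate 1 or H/R replicate 2 it was also past the threshold, with adjusted p values of 0.0420 and 0.0444 in edgeR's test. The members called lower therefore numbered 2 instead of 1 under upper quartile scaling, library totals alone and both RPKM fits, and 1 to 2 with 1 library left out. Members past both thresholds numbered 1 with at least 10 counts in every library, where Cyp1b1 is removed, and 0 on log2(RPKM + 1), where low genes show smaller changes by construction. Hif3a, Ahrr, Sim1, Sim2, Npas1, Npas3 and Npas4 were also added to the partners, each only where it was present among the genes measured. The log2 ratio of the sum per Arnt was then -0.41 (-0.23 without them) and that of the Ahr share was 1.01 (0.84 without them).

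The sign of Hsp90aa1 turned under upper quartile scaling (-0.0600), library totals alone (-0.0945), log2(RPKM + 1) (-0.0933), log2(RPKM + 0.1) (-0.0935) and in 3 of the 6 fits with 1 library left out, whose full range was -0.0166 to 0.0481. Hsp90ab1 turned, to -0.0143, with library totals alone, log2(RPKM + 1) and log2(RPKM + 0.1). Hsp90ab1 was called higher with DESeq2, the replicate block, without Control replicate 2 and without H/R replicate 3 (adjusted p 0.0175, 0.0344, 0.0418 and 0.0225). Except where stated, the cause was not tested.

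Same-numbered replicates did not deviate together (correlations -0.03, 0.00 and -0.01). With 3 libraries per group this does not show whether the samples were paired. With the replicate block the log2 fold change was 1.51 for Ahr, -1.94 for Cyp1b1, 0.56 for Tiparp and -0.52 for Aldh3a1 (adjusted p 0.0584 in edgeR's test), and no member's call changed, while Hsp90ab1 became called. Counts under 10 per library limit Ahrr, Cyp1a2 and Cyp1b1 in H/R.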
